A study of Mus musculus with 768 samples.

Results

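The genes described here are 9 neural cell adhesion molecules in mouse Schwann cells (SCs), out of 25700 genes in the count table. They were chosen by name, and all 9 were found in the table and passed the filter on low counts. They comprise L1cam, Chl1 and Ncam1 of the immunoglobulin superfamily, the cadherins Cdh2 and Cdh19, the neuroligin Nlgn3, and the nectin-like molecules Cadm1, Cadm2 and Cadm3. Single SCs from sciatic nerves of mice at postnatal day 60 were sorted into 2 plates of 384 wells and sequenced with Smart-Seq2, a full-length cDNA protocol in which copies of 1 molecule cannot be recognised, so all values rest on reads. The mice (P0Cre-/+:ReYFP Tg/+:βAct-DsRed Tg/+) carried P0Cre, which acts in the SC lineage, a Cre-dependent eYFP reporter (ReYFP) and the ubiquitous βAct-DsRed transgene, so all cells compared here share these alleles, and the sort kept eYFP-positive cells. Each plate held cells pooled from male and female mice, and the plates came from different animals. The plate, not the cell, was therefore the replicate (n = 2).

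SCs occur in adult nerve in a pair of differentiated forms. Myelinating SCs (mSCs) wrap a single large axon and keep contact with it along the internode, at the paranode and at the node, whereas non-myelinating Remak SCs (nm(R)SCs) hold bundles of small axons in pockets of their surface. L1 family molecules and NCAM bind partners on other cells through immunoglobulin domains, classical cadherins form calcium-dependent contacts linked to catenins, neuroligins bind neurexins, and nectin-like molecules bind each other across the cleft between glia and axon. In the myelinated internode the known pairing is of Cadm4 on the SC with Cadm3 and Cadm1 on the axon.

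Of the 768 cells, 674 had 1500 or more detected genes and were kept, 340 in plate 1 and 334 in plate 2. The plates held 74280540 and 209404659 reads, and kept cells had a median of 158689 and 452483.5 reads. Cells were clustered without the 9 genes, without 50 listed adhesion-related genes and without genes whose exons overlap them, and clusters were called mSC-like or nm(R)SC-like from other markers. This gave 146 mSC-like and 178 nm(R)SC-like cells in plate 1 and 72 and 248 in plate 2, while 30 cells that formed a cell-cycle cluster were given no class name, of which the 14 of plate 2 were shallow (median 3989 reads) and the 16 of plate 1 were not (median 267800 reads). The mSC-like cells were mostly cluster 3, led by Mfap5, in plate 1 (88 of 146 cells) and mostly cluster 1, led by Emid1 and Ncmap, in plate 2 (53 of 72 cells), so the mix of mSC-like cells in each class comparison differed between the plates. The general SC marker Sox10 was read in all 4 sums, at 407 and 240 CPM (reads scaled to a common total per sum) in mSC-like and 560 and 246 CPM in the nm(R)SC-like class.

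Reads were summed per plate and class and compared with edgeR's quasi-likelihood test, with plate as a block and Benjamini-Hochberg adjustment over 13262 genes. Of all genes tested, 3.26% were called at an adjusted p under 0.05, with 1.57% higher in nm(R)SC-like and 1.7% higher in mSC-like cells. Of the 9 adhesion molecules, 6 were called higher in nm(R)SC-like cells (L1cam, Ncam1, Cdh2, Cdh19, Nlgn3 and Cadm1), 1 was called higher in mSC-like cells (Cadm3), and 2 (Chl1 and Cadm2) were not called. The median log2 ratio of mSC-like over nm(R)SC-like cells was -5.17 over the 9 genes and -0.13 over all genes tested. For each of the 9 genes, the 2 sums of one class did not overlap the 2 sums of the other. This also held for Chl1 and Cadm2, which were not called. The share of all genes tested with such an order was not counted, so nothing particular to the 9 genes is read from it. With no plate block only Ncam1 and Nlgn3 of the 9 were called.

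**Figure D1:**
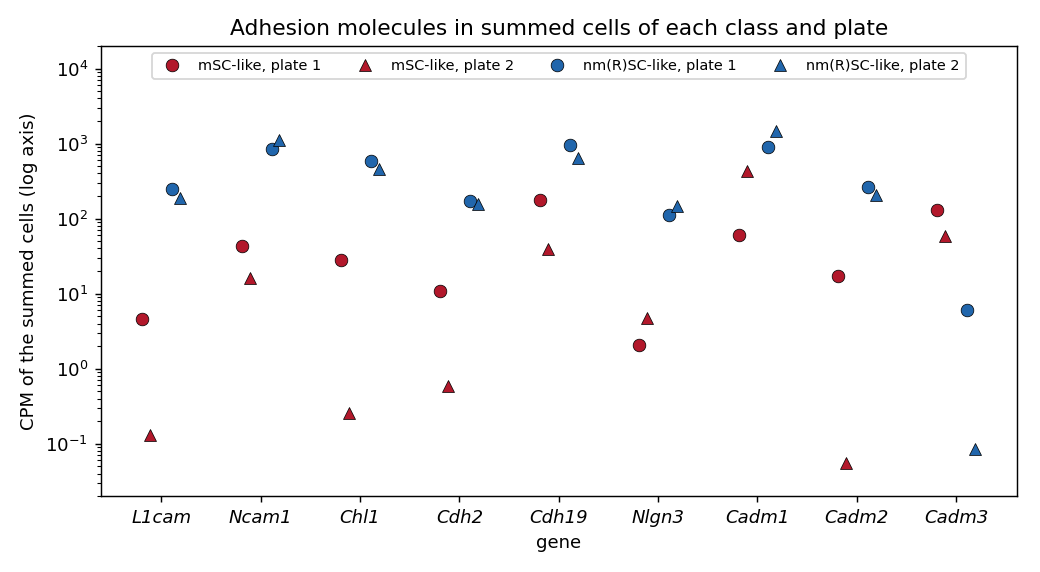
CPM (log axis) of each adhesion molecule in the summed cells of each class (red, mSC-like; blue, nm(R)SC-like) and plate (circle, plate 1; triangle, plate 2). Both nm(R)SC-like sums lie above both mSC-like sums for 8 genes, and for Cadm3 the order is the opposite. How many of all genes show such an order was not counted.

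L1cam, the founding member of its family and a homophilic adhesion molecule of axons and non-myelinating SCs, was read at 251 and 188 CPM in the nm(R)SC-like class of plates 1 and 2 and at 4.57 and 0.129 CPM in mSC-like cells. The nm(R)SC-like sums thus lay close together, while the mSC-like sums were low in both plates and rested on 140 and 7 reads. The log2 ratio was -7.67 ± 1.23 (SE), with an edgeR adjusted p of 0.0182 (0.0557 with no plate block). Thinning each cell to 100000 reads left 96 and 71 mSC-like and 115 and 241 nm(R)SC-like cells. After it, L1cam was found in 71.3% and 41.1% of cells of the nm(R)SC-like class and in 22.9% and 2.82% of mSC-like cells. These shares were 58.3% and 32.4% against 2.08% and 0% at a minimum of 5 reads. L1cam lies on the minus strand of chrX:73853778-73896105 (GRCm38) and shares 100 exonic bases on the same strand with Arhgap4, and the strand and overlap settings of the counting were not given in the sources used here. Arhgap4 itself did not follow L1cam, reading 24.6 and 46.8 CPM in mSC-like and 40.3 and 26.8 CPM in the nm(R)SC-like class, with a log2 ratio of 0.22 (edgeR adjusted p = 0.983). In cells with no Arhgap4 read, L1cam was at 249 and 204 CPM in nm(R)SC-like and 2.79 and 0.101 CPM in mSC-like cells, so its class difference was as large without the cells in which Arhgap4 was read.

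The 250 bases before the more upstream of the RefSeq starts of L1cam (chrX:73880835-73881084, minus strand, GRCm38.p6, from RefSeq) are shown 5′ to 3′ because the gene had the lowest ratio of the 9. Capitals mark matches, on either strand, to the motifs searched, which were the E-box CANNTG, the SOX cores ACAAAG and ACAATG, the TEAD core GGAATG and the CCAAT box. The window held 2 E-boxes and 1 CCAAT box and no SOX or TEAD core. Of 32851 RefSeq windows of this length, 66.2% held an E-box, 33.8% a CCAAT box, 16.5% and 10.7% the SOX cores ACAAAG and ACAATG, and 12.6% the TEAD core.
L1cam: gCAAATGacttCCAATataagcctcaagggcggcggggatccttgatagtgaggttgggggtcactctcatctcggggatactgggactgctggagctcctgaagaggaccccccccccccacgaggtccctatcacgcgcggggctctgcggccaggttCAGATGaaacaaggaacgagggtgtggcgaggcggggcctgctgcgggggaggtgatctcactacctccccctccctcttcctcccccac

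Chl1 (chr6:103510586-103750211, plus strand), the close homolog of L1, was read at 593 and 463 CPM in nm(R)SC-like and at 28.5 and 0.259 CPM in mSC-like cells. The direction was the same in both plates, but the mSC-like sums stood far apart, and in plate 1 a single cell held 50.5% of the mSC-like Chl1 reads, without which the sum was at 14.3 CPM. The log2 ratio was -7.16 ± 1.64 and was not called (edgeR adjusted p = 0.0703). It was called under 8 of 13 alternative settings, and with no plate block the call was not made either. Chl1 was found in 81.7% and 60.2% of thinned nm(R)SC-like cells and in 39.6% and 7.04% of mSC-like cells. Counting only cells with 5 or more reads, the shares were 67% and 50.2% against 4.17% and 0%.

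Ncam1 (chr9:49502136-49798925, minus strand), the neural cell adhesion molecule and carrier of polysialic acid, was read at 859 and 1130 CPM in nm(R)SC-like and at 43.6 and 16.02 CPM in mSC-like cells. It was high in both nm(R)SC-like sums and low in both mSC-like sums, with no overlap. A single cell held 51.3% of the mSC-like reads of plate 1, and without it the sum was at 22.4 CPM. The log2 ratio of -5.04 ± 0.572 was called (edgeR adjusted p = 0.00578), as it was in all 13 alternatives. Ncam1 was also found in nearly every nm(R)SC-like cell, 94.8% and 93.8% after thinning, against 51.0% and 25.4% of mSC-like cells. With a minimum of 5 reads these shares were 84.3% and 88.4% against 6.25% and 8.45%. St8sia2 and St8sia4, which encode the polysialyltransferases that modify NCAM, were read at no more than 0.592 CPM in any sum and were not tested.

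Cdh2 (chr18:16588877-16809246, minus strand), the N-cadherin of neural and SC junctions, was read at 172 and 158 CPM in nm(R)SC-like and at 10.8 and 0.591 CPM in mSC-like cells. The nm(R)SC-like sums were close to each other, and 28 of the 32 mSC-like reads of plate 2 came from 1 cell, without which that sum was at 0.0759 CPM. The log2 ratio was -5.79 ± 1.11 (edgeR adjusted p = 0.0353, and 0.0887 with no plate block). Cdh2 was found in 53.0% and 43.2% of thinned nm(R)SC-like cells and in 24% and 2.82% of mSC-like cells. Many nm(R)SC-like cells thus had no Cdh2 read at this depth. Cells with 5 or more Cdh2 reads made up 38.3% and 34.4% of the nm(R)SC-like and 6.25% and 0% of the mSC-like class.

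Cdh19 (chr1:110888326-110977584, minus strand), a cadherin known from the SC lineage, was read at 972 and 638 CPM in nm(R)SC-like and at 178 and 39.1 CPM in mSC-like cells. The mSC-like sums stood apart from each other but below both nm(R)SC-like sums, and the log2 ratio was -3.06 ± 0.490 (edgeR adjusted p = 0.0182, and 0.114 with no plate block). The plates differed most in mSC-like cells, where Cdh19 was found in 78.1% of thinned cells of plate 1 (exact 95% interval 68.5% to 85.9%) and in 18.3% of plate 2 (10.1% to 29.3%). In nm(R)SC-like cells the shares were 96.5% and 78.0%.

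Nlgn3 (chrX:101299168-101325963, plus strand), a neuroligin that binds neurexins, was read at 110 and 148 CPM in nm(R)SC-like and at 2.09 and 4.67 CPM in mSC-like cells. A single cell held 91.7% of the mSC-like reads of plate 2, and without it the sum was at 0.395 CPM. The log2 ratio was -5.17 ± 0.623 (edgeR adjusted p = 0.00659) and was called in all 13 alternatives. Nlgn3 was nevertheless found in fewer nm(R)SC-like cells than Ncam1, 46.1% and 28.2% after thinning, and in 7.29% and 7.04% of mSC-like cells.

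Cadm1 (chr9:47530173-47857637, plus strand), known in the internode as an axonal partner of Cadm4, was read at 895 and 1478 CPM in nm(R)SC-like and at 60.7 and 430 CPM in mSC-like cells. It had the highest mSC-like level of plate 2 among the 8 genes with the opposite direction to Cadm3, and the mSC-like sums differed between plates by more than those of nm(R)SC-like cells. The log2 ratio was -2.65 ± 0.552 (edgeR adjusted p = 0.0479), which was -3.86 in plate 1 and -1.78 in plate 2 on the log2(CPM + 1) scale. The call was lost in 5 of 13 alternatives, with an adjusted p of 0.395 without the plate block. Cadm1 was found in 95.7% and 90.0% of the nm(R)SC-like and in 56.2% and 56.3% of mSC-like cells after thinning.

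Cadm2 (chr16:66655421-67620908, minus strand), a nectin-like relative of Cadm1, was read at 266 and 206 CPM in nm(R)SC-like and at 17.3 and 0.0554 CPM in mSC-like cells. In plate 1 a single cell held 42.6% of the mSC-like reads, and without it the sum was at 10.1 CPM. The mSC-like sum of plate 2 held 3 reads, for a ratio of 3710-fold in that plate with an exact counting interval of 1269 to 17990. That interval takes reads as independent, although copies of 1 molecule cannot be recognised, and leaves out the spread between cells and plates. The fitted log2 ratio of -6.99 ± 1.89 was not called (edgeR adjusted p = 0.121), and it was called in 3 of 13 alternatives. After thinning, Cadm2 was found in plate 1 in 17.7% of the mSC-like class and 60% of the nm(R)SC-like class, and at 5 or more reads in 5.21% and 41.7%. In plate 2 no thinned mSC-like cell had a Cadm2 read (0 of 71 cells), against 40.2% of the nm(R)SC-like class. That 0 allows a share of up to 4.23% by a limit of 3 cells and 5.06% by the exact 95% interval.

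Cadm3, the other axonal partner of Cadm4, ran against the rest, with 130 and 57.9 CPM in mSC-like and 6.12 and 0.0844 CPM in the nm(R)SC-like class. Both mSC-like sums were above both nm(R)SC-like sums, and in plate 1 a single cell held 62.6% of the nm(R)SC-like reads, without which that sum was at 2.33 CPM. The log2 ratio was 6.95 ± 1.43 (edgeR adjusted p = 0.046, and 0.175 with no plate block). Cadm3 was found in 60.4% and 32.4% of thinned mSC-like cells and in 13% and 0.83% of nm(R)SC-like cells. Of the genes of other cell types used as background, Ptprc was found in none of the thinned cells and Cldn5 in 1.04% to 5.81%, and the nm(R)SC-like share of Cadm3 in plate 2 was below that upper share. Cadm3 (chr1:173333258-173367695, minus strand, GRCm38) shares 361 exonic bases on the same strand with Ackr1, which had 2264 and 3 reads in mSC-like and 15 and 0 reads in nm(R)SC-like cells. In cells with no Ackr1 read, Cadm3 was at 53.5 and 55.02 CPM in mSC-like and 6.24 and 0.0844 CPM in the nm(R)SC-like class, so the direction held without them while the mSC-like level of plate 1 was lower.

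The 250 bases before the RefSeq starts of Cadm2 (chr16:67620909-67621158, minus strand) and Cadm3 (chr1:173367696-173367945, minus strand, both GRCm38.p6, from RefSeq) are set side by side because these relatives stood on opposite sides of the class comparison. Capitals mark the same motifs as above.
Cadm2: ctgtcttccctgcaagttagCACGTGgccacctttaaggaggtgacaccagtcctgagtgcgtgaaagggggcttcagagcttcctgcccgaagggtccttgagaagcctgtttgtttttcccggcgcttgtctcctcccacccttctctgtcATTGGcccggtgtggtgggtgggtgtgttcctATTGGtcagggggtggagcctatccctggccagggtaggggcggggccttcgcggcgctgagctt
Cadm3: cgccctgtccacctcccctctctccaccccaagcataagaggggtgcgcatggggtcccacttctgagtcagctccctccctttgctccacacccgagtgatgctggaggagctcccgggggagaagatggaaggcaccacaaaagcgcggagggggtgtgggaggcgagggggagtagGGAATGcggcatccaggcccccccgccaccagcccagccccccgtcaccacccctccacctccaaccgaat
The Cadm2 window held 1 E-box and 2 CCAAT boxes, on either strand, and no TEAD or SOX core. The Cadm3 window held 1 TEAD core and none of the other motifs. These are matches of letters in the windows, not measured binding sites.

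**Figure D2:**
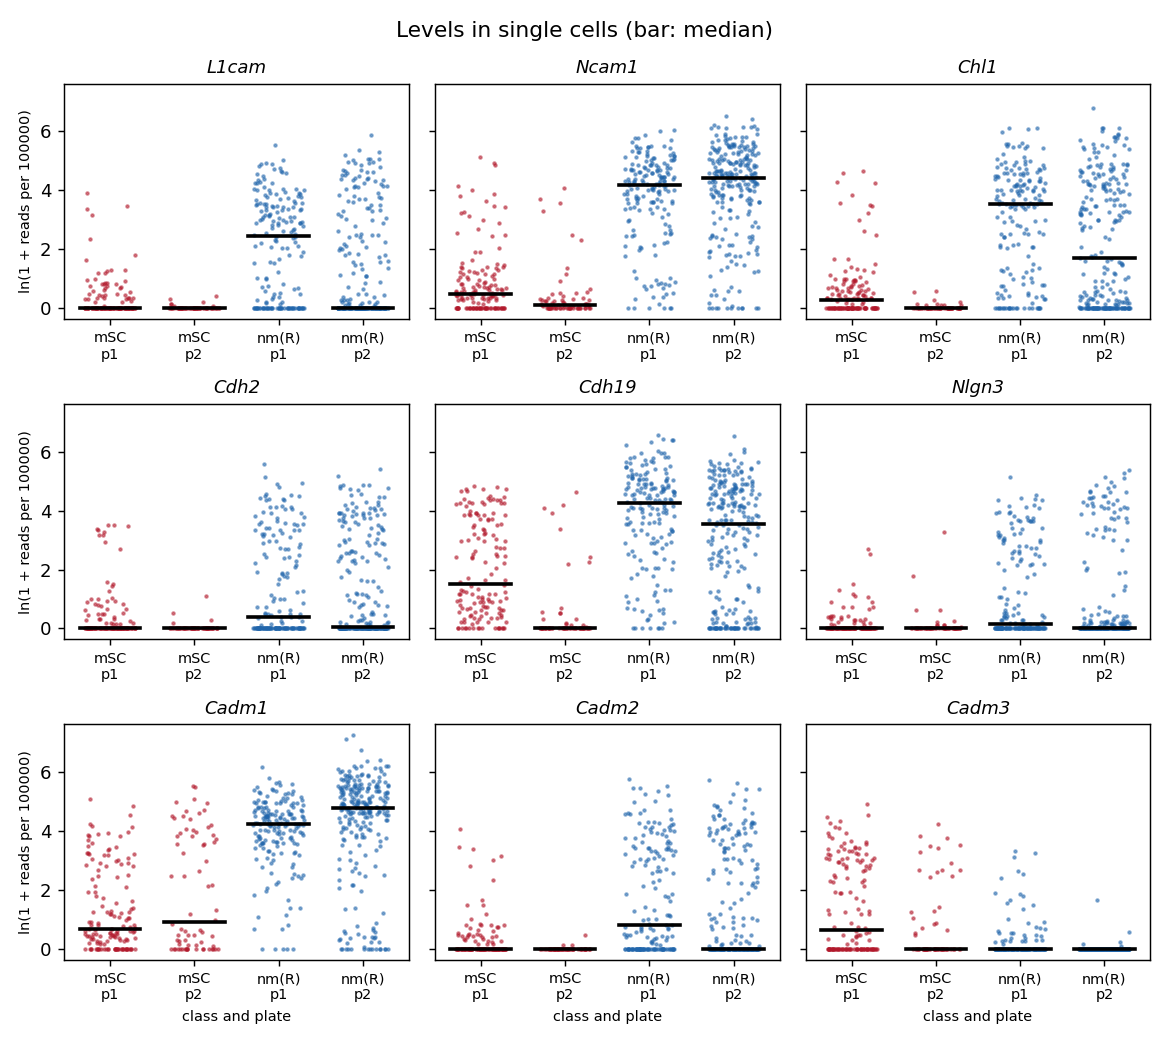
Level of each adhesion molecule in single cells, as ln(1 + reads per 100000), by class and plate (p1, p2), with 1 point per cell and a bar at the median. Ncam1 and Cadm1 medians are high in both nm(R)SC-like groups, while the Nlgn3 medians lie at or near 0 in all groups, and most mSC-like cells of plate 2 have no read of L1cam, Chl1, Cdh2, Cadm2 or Nlgn3.

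Compared per kilobase of exon, the order of levels in nm(R)SC-like cells was led by Cdh19 (227 and 149 CPM per kb), Ncam1 (99.2 and 130) and Cadm1 (85.7 and 142). Ncam1 and Cadm1 could not be separated, since their plate values overlapped, and in plate 2 they lay just below Cdh19. Chl1 followed at 48.2 and 37.7 CPM per kb, above L1cam at 34.2 and 25.6. L1cam, Cadm2 (27.1 and 20.96 CPM per kb) and Cdh2 (21.3 and 19.6 CPM per kb) overlapped with their neighbours in this order. Nlgn3 was lower, at 11.9 and 15.98 CPM per kb, and Cadm3 was last, at 0.845 and 0.0116. In mSC-like cells Cdh19 (41.7 and 9.15 CPM per kb), Cadm1 (5.81 and 41.1) and Cadm3 (17.9 and 7.99) had the highest levels and overlapped with each other, and Ncam1 followed at 5.03 and 1.85.

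Single nm(R)SC-like cells carried several of these transcripts at once. Of the 8 genes other than Cadm3, the median thinned nm(R)SC-like cell had reads of 6 in plate 1 and 5 in plate 2, against 3 and 1 in mSC-like cells. At least 5 of the 8 were found in 80.9% and 55.6% of cells of the nm(R)SC-like class and in 13.5% and 0% of mSC-like cells. The plates differed in the same way in both classes, with more of these genes per cell in plate 1 at the same number of reads. The median number of detected genes of any kind, before thinning, was also higher in plate 1. For plates 1 and 2 it was 3410.5 and 2533.5 in the mSC-like class and 3402.5 and 2273 in the nm(R)SC-like class. Nothing particular to the 8 genes is therefore read from this plate difference.

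**Figure D3:**
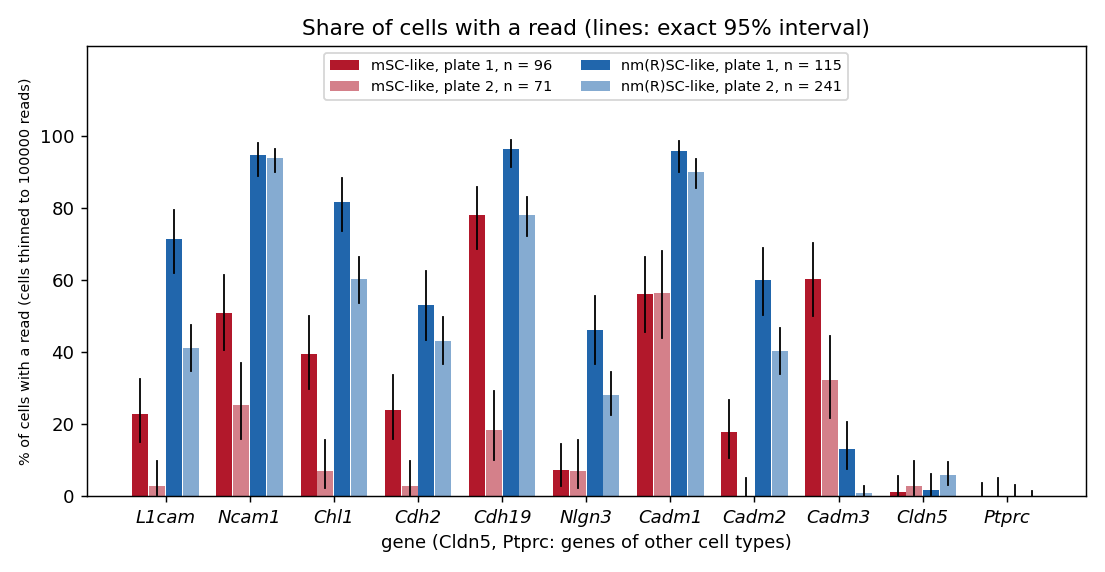
Share of cells with at least 1 read of each gene after thinning to 100000 reads, by class (red, mSC-like; blue, nm(R)SC-like) and plate (full colour, plate 1; pale, plate 2), with exact 95% binomial intervals as lines that cover counting error only. For Ncam1 the nm(R)SC-like shares exceed 90% in both plates, and for Cadm3 the mSC-like shares of 60.4% and 32.4% exceed the nm(R)SC-like shares.

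Levels differed among the clusters within each class, which are given as a description without a test because the contrast was noticed in the values. In mSC-like cells Cadm1 and Cadm3 ran in opposite directions. Cadm1 was at 163 and 568 CPM in cluster 1 and at 8.35 and 61.3 CPM in cluster 3, which had 2622 and 2836 CPM of Mfap5. Cadm3 was at 35.4 and 22.6 CPM in cluster 1 and at 178 and 152 CPM in cluster 3. This order was found in both plates. Plate 2, where cluster 1 was the larger, had the higher Cadm1 and the lower Cadm3 sum of the class. Within cluster 1 and within cluster 3, Cadm1 was also higher and Cadm3 lower in plate 2. The part of the cluster mix in this plate difference was not tested.

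In nm(R)SC-like cells all 8 genes other than Cadm3 were read in every cluster of both plates. Cluster 5, led by Apoe, C4b and F3, had the highest Cdh2 (491 and 293 CPM), Cadm2 (650 and 459 CPM) and Ncam1 (1307 and 1668 CPM) of the 4 clusters in both plates. Cluster 0, led by Ednrb, had the lowest Cadm2 (86.1 and 38.3 CPM), Ncam1 (425 and 705.7 CPM), Cdh19 (585 and 382 CPM) and L1cam (107 and 136 CPM) in both plates, for L1cam close to the 139.5 CPM of cluster 2 in plate 2. Cluster 4, led by Apoe and Scn7a, had 393 and 301 CPM of L1cam but 35.0 and 78.3 CPM of Cdh2. L1cam was at 486 and 178 CPM in cluster 5, so cluster 5 was highest for both genes in plate 1, while in plate 2 L1cam was highest in cluster 4 and Cdh2 in cluster 5. Nlgn3 had no constant order, with its highest level in cluster 5 in plate 1 (238 CPM) and in cluster 0 in plate 2 (209 CPM).

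**Figure D4:**
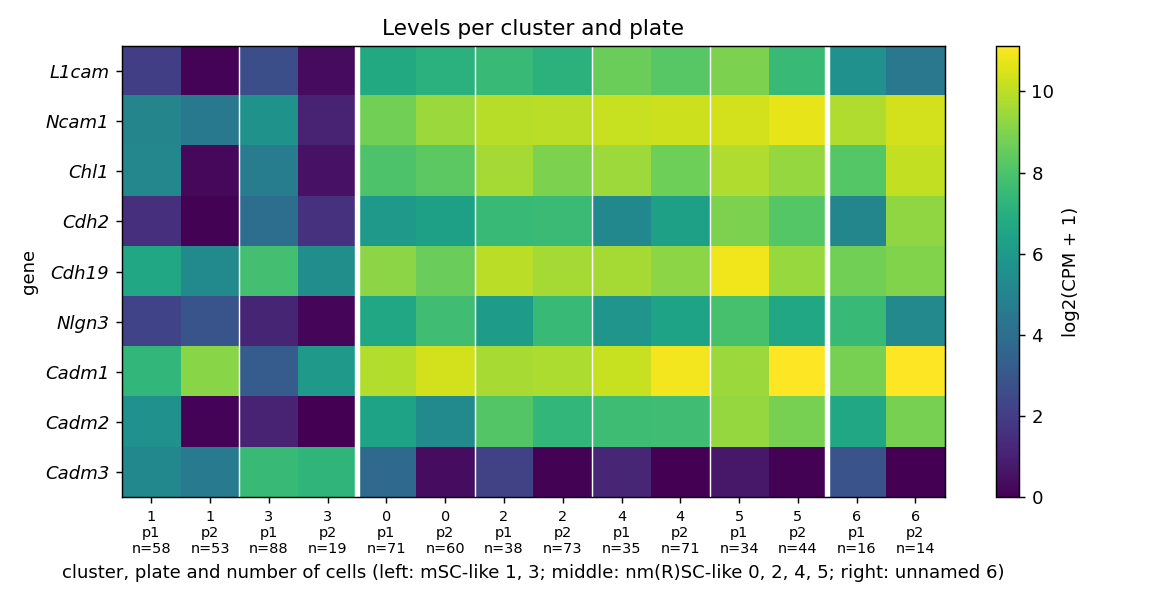
Level of each adhesion molecule, as log2(CPM + 1), in each cluster and plate (p1, p2), with the number of cells under each column and thick lines between mSC-like, nm(R)SC-like and unnamed clusters. Cadm1 is higher in cluster 1 and Cadm3 in cluster 3, and Cadm2 is highest among the nm(R)SC-like clusters in cluster 5.

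Across all kept cells (n = 340 and 334), the gene outside the set whose level was most like Ncam1 was Apoe, with Pearson's r of 0.735 and 0.710 in the plates, followed by Scn7a (0.732 and 0.633) and Rarres2 (0.697 and 0.626). Scn7a, a sodium channel gene of non-myelinating SCs, was also among the 3 most like genes of L1cam, Chl1, Cdh19, Cadm1 and Cadm2. L1cam was most like Matn2 (0.509 and 0.352), Scn7a and Entpd2, and Chl1 most like Scn7a (0.677 and 0.480), Apoe and Sparcl1. Cdh2 was most like C4b (0.550 and 0.424), F3 and Sparcl1, Cdh19 most like Scn7a (0.577 and 0.532), Apoe and Sparcl1, and Cadm1 most like Apoe (0.607 and 0.426), Scn7a and Rarres2. Cadm2 was most like Slc43a3 (0.454 and 0.434), Scn7a and Apoe. Cadm3 was most like Drp2 (0.560 and 0.603), a dystroglycan-associated gene of the myelin internode, followed by Fam178b and Slc36a2. No gene reached an r of 0.3 in both plates with Nlgn3. Within nm(R)SC-like cells alone (178 and 248 cells) the highest r that held in both plates was at most 0.326 for any of the 9. These cells share libraries, depth and class, so the values describe likeness only.

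Among themselves, the 28 pairs of the 8 genes other than Cadm3 had a median r of 0.408 in plate 1 and 0.224 in plate 2 across all kept cells, and 10 pairs reached 0.3 in both plates. Within nm(R)SC-like cells the medians were 0.208 and 0.0682, and no pair reached 0.3 in both plates.

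Of the 50 listed adhesion-related genes, which include relatives, cytoplasmic partners and sheddases, 39 could be tested. In the same test 4 were higher in mSC-like cells, and 1 was called in the opposite direction, while 34 were not called, with a median log2 ratio of 0.31. Nfasc, which encodes the neurofascins of node and paranode and is a relative of L1cam, was at 227 and 132 CPM in mSC-like and 32.0 and 23.2 CPM in the nm(R)SC-like class, with a log2 ratio of 2.84 ± 0.442 (edgeR adjusted p = 0.0164). Gldn, which encodes gliomedin of the nodal microvilli, was at 326 and 114 CPM against 28.9 and 29.8 CPM (log2 ratio 2.89, edgeR adjusted p = 0.0302). Both thus had the direction of Cadm3 rather than that of L1cam and Nlgn3.

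The scaffold genes Mpp6 (log2 ratio 5.63, edgeR adjusted p = 0.0147) and Epb41l2 (2.07, adjusted p = 0.0348), whose product 4.1G binds nectin-like molecules, were also called higher in mSC-like cells. Mcam, an immunoglobulin superfamily adhesion molecule, was the 1 listed gene called higher in nm(R)SC-like cells, at 313 and 154 CPM against 36.7 and 29.5 CPM (log2 ratio -2.56, edgeR adjusted p = 0.0235). Cadm4, the glial partner in the internode, was at 175 and 123 CPM in nm(R)SC-like and 72.1 and 13.1 CPM in mSC-like cells, a log2 ratio of -2.08 that was not called (edgeR adjusted p = 0.153). Cdh1, the E-cadherin of the SC's own junctions in non-compact myelin, was at 197 and 95.1 CPM in mSC-like and 17.5 and 0.0649 CPM in nm(R)SC-like sums, a difference that was not called (edgeR adjusted p = 0.116). The most abundant cytoplasmic partner and sheddase, Ctnna1 and Adam10, had log2 ratios of -0.57 and 0.84 and were not called (edgeR adjusted p of 0.592 and 0.376).

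**Figure D5:**
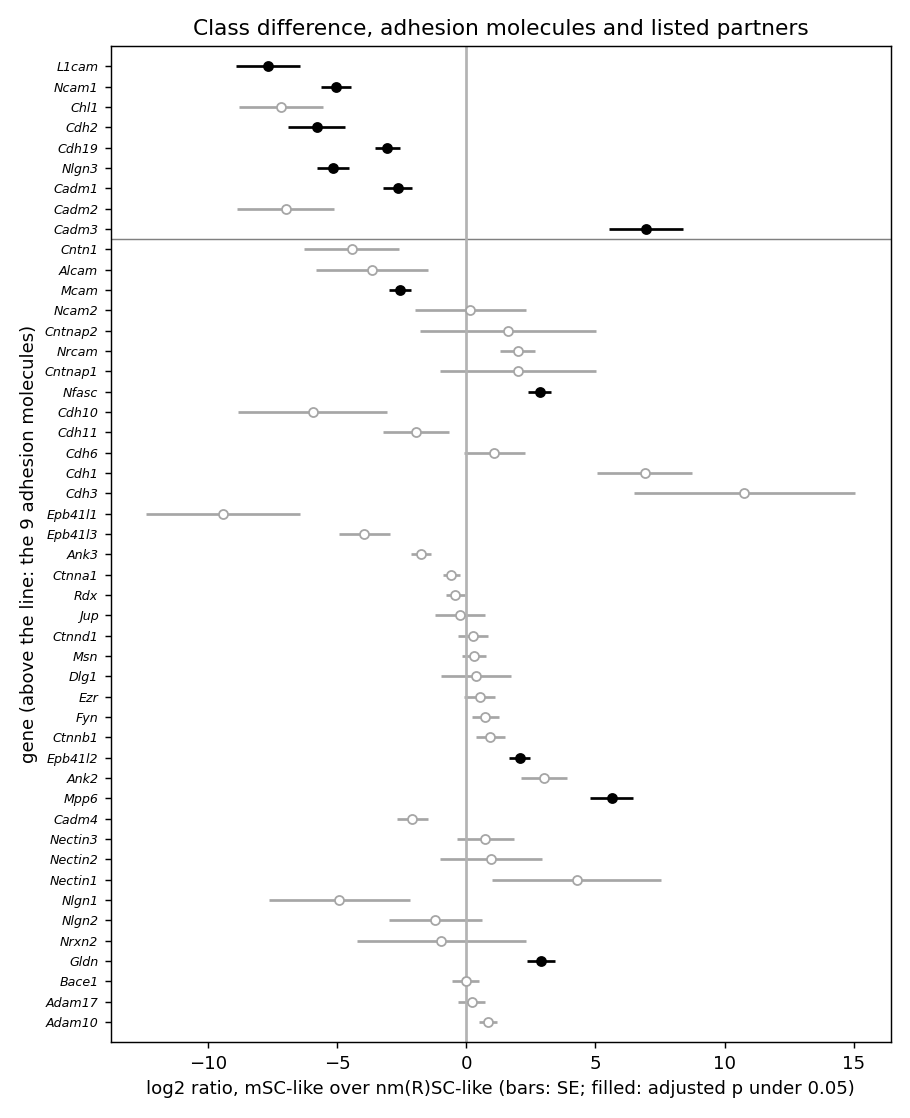
Log2 ratio of mSC-like over nm(R)SC-like cells with its SE for the 9 adhesion molecules (above the line) and the 39 listed genes that were tested (below it), with filled points for an adjusted p under 0.05. Of the 9 molecules, 8 lie left of 0 and Cadm3 lies right of it, whereas the listed genes spread around a median of 0.31.

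Markers of other cell types of the nerve were summed beside these comparisons. The 4 neuronal markers (Snap25, Nefl, Syt1 and Rbfox3) summed to 31.1 and 3.55 CPM in nm(R)SC-like and 0.849 and 0.0369 CPM in mSC-like cells, with Rbfox3 at 0 and Nefl at no more than 0.0257 CPM. The 6 markers of endoneurial, epineurial and perineurial cells summed to 715.6 and 335 CPM in nm(R)SC-like and 264 and 195 CPM in mSC-like cells, mostly from Col1a1. Of these, 3 of the 6 (Pdgfra, Dcn and Col1a1) were higher in nm(R)SC-like cells of both plates. Pdgfra was near 0 in every sum, at 0.1801 and 0.006492 CPM in nm(R)SC-like and 0.03265 and 0 CPM in mSC-like cells. Slc2a1 was higher in mSC-like cells of both plates, at 43.6 and 82.1 CPM against 12.9 and 28.9 CPM. The 4 endothelial markers summed to 37.5 and 12.03 CPM in mSC-like and 8.44 and 0.383 CPM in the nm(R)SC-like class, in mSC-like cells mostly from Kdr. Cldn5 alone had the other direction in both plates, at 0.229 and 0.148 CPM in mSC-like and 6.59 and 0.357 CPM in the nm(R)SC-like class. In the same order, the 4 markers of pericytes and smooth muscle summed to 54.95 and 19.9 against 4.09 and 13.1 CPM, with Rgs5 at 0. Most of this came from Pdgfrb, and Des, at no more than 0.0257 CPM, had the other direction in both plates. The 4 immune markers summed to 10.7 and 20.5 CPM in mSC-like and 8.77 and 7.80 CPM in the nm(R)SC-like class, with at most 1 Ptprc read in any sum. The part of these other cell types in the class differences of the adhesion molecules was not tested.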

How the data were processed

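The authors deposited raw counts of reads per gene for 768 single cells, with no normalisation. Per the labels, reads were demultiplexed with bcl2fastq, aligned with STAR 2.6.1c to GRCm38.p5 and counted with featureCounts. Each column was matched to its cell by title, no 2 cells held the same counts, and the labels' replicate number gave the plate. Symbols, exon lengths and overlaps were taken from GENCODE M21 (GRCm38) by gene identifier.

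Kept cells (1500 detected genes or more) were scaled to 100000 reads, integrated across plates by canonical correlation analysis (12 dimensions) and clustered at a resolution of 0.5 with Seurat 5.3.0 in R 4.3.3. A cluster was named from 11 mSC or 8 nm(R)SC markers that exclude the 9 genes. It stayed unnamed where the median of its cells' reads over their plate's median, taken over both plates together, was under 33.3% and no marker led it. These classes were built here and may not match those of the study. No doublet caller was run, since single cells were sorted into wells. To give the background, all other genes were split at random into 2 parts, and each part was tested between classes built from the other. These matched in 95.7% and 94.6% of 644 cells. In these background classes a cluster with cell-cycle genes (33 and 34 cells) counted as nm(R)SC-like. For the 9 genes and the listed genes the cell-cycle cluster entered neither class. With it counted as nm(R)SC-like for them too, 6 of the 9 were called higher in nm(R)SC-like and 1 in mSC-like cells. The split guards against the choice of genes, not against structure that all genes of a cell share.

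Counts were summed per plate and class, giving 4 sums, and tested with edgeR 4.0.16 (quasi-likelihood, TMM scaling, minimum count of 10 in filterByExpr, plate block, 1 residual degree of freedom). SEs were the log2 ratio divided by the square root of the F statistic. The block pairs the classes because both were sorted from the same pool of animals in each plate, and the plate differences of the classes had an r of 0.177 across 8858 genes. DESeq2 1.42.0 and limma 3.58.1 were alternatives. The script was tested on simulated data. Depth per cell ranged from 1025 to 4076083 reads, and intervals cover counting error only. Thinning drew 100000 reads per cell and left out shallower cells.

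The named genes are all 9 molecules, each listed gene that was called, the most abundant gene of each subgroup of the list, and the 3 genes most like each molecule where r was 0.3 or more in both plates. The molecules, lists and tests were chosen with earlier results of these data known.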

Additional observations from a re-analysis of the deposited data

Results flagged for a closer look

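The 30 unnamed cells led by cell-cycle genes entered neither class. In them 8 of the 9 adhesion molecules, all but Cadm3, had a level in both plates above that of either mSC-like sum. For 4 of the 8 this rested on 1 cell in at least 1 plate. The share of all genes with such an order was not counted, so nothing particular to the 8 genes is read from it. The CPM of the 8, as the mean of the plates, was 34.68 for L1cam, 1090 for Ncam1, 696 for Chl1, 327.4 for Cdh2, 472.3 for Cdh19, 1332 for Cadm1, 274.5 for Cadm2 and 107.7 for Nlgn3. The plate 2 part rested on 189918 reads in 14 cells, against 4678927 reads in 16 cells of plate 1, and held 4 reads of L1cam and 7 of Nlgn3. In plate 2 a single cell gave 93.5% of the Ncam1, 98.6% of the Chl1, 99.2% of the Cdh2, 98.0% of the Cdh19, 94.3% of the Cadm1 and 100% of the Cadm2 reads. Without the cell with most reads of the gene, Cadm2 was at 0 and Cdh19 at 26.4 CPM in plate 2, Cdh2 at 5.74 CPM in plate 1, and Cadm1 at 389 and 317 CPM in the plates, no longer above both mSC-like sums. L1cam, Ncam1, Chl1 and Nlgn3 stayed above both in each plate. In plate 1 alone the levels were 48.3 CPM for L1cam, 880 for Ncam1, 292 for Chl1, 33.6 for Cdh2, 423 for Cdh19, 458 for Cadm1, 96.2 for Cadm2 and 179 for Nlgn3. Cadm3 had 29 reads in plate 1, all from 1 cell, and 0 in plate 2.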

How the results depend on the processing

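No log2 ratio of the 9 molecules changed direction under any of 13 alternatives to the test, scaling, filter, block, classes, depth or weighting, or within either plate. Ncam1 and Nlgn3 were called in all 13, L1cam and Cdh19 in 12, Cdh2 in 10, Cadm3 in 9, Cadm1 and Chl1 in 8 and Cadm2 in 3. With no replicate block, 2 molecules were called for the nm(R)SC-like and 0 for the mSC-like class, listed genes called were 0 and 2 in the same order, and 158 of all genes were called. Cadm3 was also not called, leaving 0 molecules higher in mSC-like cells, with no normalisation factors, with cells of 2500 or more genes and with classes built from all genes. Listed genes called for the nm(R)SC-like class numbered 7 with DESeq2, 2 with RLE factors, 2 with no normalisation factors, 2 with no filter on low counts, 4 with thinned cells and 6 with limma on mean CPM over cells. Those higher in mSC-like cells were 8 with DESeq2 and 2 with cells of 2500 or more genes. All genes called were 1700 with DESeq2, 1176 with limma and 179 with cells of 2500 or more genes, against 433. Without normalisation factors the median ratio of all genes moved from -0.13 to -0.31, and 44.3% of calls were higher in mSC-like cells, against 52.0%. That share was 43.2% with DESeq2, 39.3% with limma and 49.8% with no filter. The cause of these differences was not tested.

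The share of nm(R)SC-like cells with a read, as a median over the molecules, was 57.2% and ranged from 43.2% to 71.3% when each plate was left out. On the log2(CPM + 1) scale, which shrinks ratios where a sum is near 0, so that fitted ratios can lie outside these ranges, the ratio within single plates ranged from -7.39 to -5.50 for L1cam, -6.05 to -4.27 for Ncam1, -8.53 to -4.33 for Chl1, -6.64 to -3.88 for Cdh2, -3.99 to -2.44 for Cdh19, -3.86 to -1.78 for Cadm1, -7.61 to -3.86 for Cadm2, 4.20 to 5.76 for Cadm3 and -5.17 to -4.72 for Nlgn3. After plate 1 reads expected from exchange between libraries that share an index were subtracted (0.963% of its reads), Cadm1 was not called (edgeR adjusted p = 0.0541). Counting the unnamed cells as nm(R)SC-like, and leaving out cells with reads of overlapping genes, were chosen after seeing the data and changed no direction. Only 2 plates with 1 residual degree of freedom limit every test, and mSC-like sums of plate 2 with 3 to 14 reads of L1cam, Chl1 and Cadm2 limit the size of those ratios.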

Other observations

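Some thinned cells held reads of both Cadm3 and L1cam, the molecules at the ends of the class comparison. In plate 1 these were 13 of the 58 mSC-like and 13 of the 15 nm(R)SC-like cells with Cadm3, and in plate 2 they were 2 of 23 and 2 of 2. Among all thinned cells, L1cam was in 22.9% and 2.82% of the mSC-like and 71.3% and 41.1% of the nm(R)SC-like class. In plate 1 only 2 nm(R)SC-like cells had 5 or more Cadm3 reads, and only 2 mSC-like cells had 5 or more L1cam reads. Whether the genes shared cells more often than these shares give was not tested. No thinned nm(R)SC-like cell lacked all of the 8 molecules other than Cadm3, while 3 and 16 mSC-like cells of plates 1 and 2 did.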
